A study of Mus musculus with 18 samples.

Results

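The data described here answer one question of the study: whether the response of mouse hepatocytes to suspension differs between a line that carries the aryl hydrocarbon receptor (AhR) and a line that lacks it. The measure is the interaction on the log2 scale, the response of the reconstituted line (suspension minus DMSO) minus the response of the AhR-null line (suspension minus DMSO). A positive interaction means that the reconstituted line went higher, or fell less, than the AhR-null line. Every probe with a detection p-value under 0.05 on 3 or more of the 18 arrays was taken, whatever its response, which kept 22203 of the 45281 probes on the array. Of these, 18673 named 1 gene (11149 genes in all), 10 named several and 3520 named none. The contrast uses 12 of the 18 arrays, 3 in each of 4 groups.

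The 4 groups were reconstituted cells in suspension, reconstituted cells with DMSO, AhR-null cells in suspension and AhR-null cells with DMSO. All came from AhR-/- Hepa cells, C57BL/6N hepatocytes transformed with the SV40 tsA209 mutant virus, and all stably expressed the tetracycline repressor TetR. The reconstituted line also expressed a HisMyc-tagged mouse AhR. The sources used here do not say whether each line is a clone or a pool, so AhR and any other difference between the lines cannot be told apart. Cells were grown at 34 °C and 5% CO2 with 10% serum and 100 nM dexamethasone. The suspended cells were lifted with 0.05% trypsin and 530 µM EDTA and held for 8 h in medium with 1.68% methylcellulose, and the control cells stayed attached with 0.1% DMSO. The remaining 6 arrays, which enter the fit through the estimate of the spread, were of both lines with 10 µM YH439, an AhR ligand. The labels record DMSO for neither the suspended nor the YH439 cells. The labels call the replicates biological but name no separate cultures; the p-values therefore reflect only how far these samples spread, and that spread may be technical.

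AhR is a transcription factor of the basic helix-loop-helix PAS family that waits in the cytoplasm in a complex with HSP90. A ligand releases it to the nucleus, where it pairs with ARNT and binds xenobiotic response elements built on a GCGTG core beside genes of drug metabolism. Loss of contact with the substrate is known to activate AhR in culture without an added ligand. Suspension may also set off other responses, among them the amino acid and endoplasmic reticulum stress responses and the hypoxia response, which were read in both lines.

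Between 42% and 44.6% of probes were detected per array, and the median intensity lay between 6.03 and 11.9. Replicate 3 of each AhR-null group and replicate 1 of each reconstituted group made up the 6 dimmest arrays. No values of replicate arrays were shared (0 identical between any pair), and their correlations lay between 0.989 and 0.996 in the reconstituted groups. In the AhR-null groups replicate 3 stood apart in every treatment, at 0.964 to 0.976 with replicates 1 and 2, which correlated at 0.995 to 0.996 with each other. The label of hepatocytes had limited support in the markers. The array carries 29 hepatocyte genes, of which 12 were tested. Of these, 6 were detected on all 12 arrays of the contrast, and Ahsg, Ass1, Foxa2, Krt8 and Krt18 reached detection on all 12. Another 16 of the 29 reached detection on 0 of the 18 arrays, among them Alb (albumin), Apoa1 and Ttr. Of 19 mesenchymal markers, 18 were tested and 17 were detected on all 12 arrays of the contrast. The Ahr probe (ILMN_2737460) was detected on 1 of 18 arrays, an AhR-null array with DMSO, and where it lies against the introduced AhR is unknown, which leaves the reconstitution unchecked. Cyp1a1 and Cyp1a2, classical AhR targets, were detected on 0 of 18 arrays. In these bulk samples, fewer cells of a type and less RNA per cell cannot be told apart.

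The response to suspension was largely shared by the lines in direction. The fit without a block called 0 probes as different between the lines. A second fit, described below, made calls headed by genes of the AhR battery. Those calls fell to 0 with only the 12 arrays of the contrast or without the 6 dimmest arrays. Cyp1b1, Aldh3a1 and Nqo1 had interactions of 1.52, 1.39 and 1.07, which are differences of 2.86-fold, 2.63-fold and 2.09-fold in favour of the reconstituted line. Without a block, limma called 0 of 22203 probes (0%) at an adjusted p under 0.05. The smallest adjusted p was 0.0506, and 595 probes (2.68%) had an unadjusted p under 0.05. Suspension and DMSO arrays with the same replicate number within a line deviated together to differing degrees (correlations from 0.159 to 0.832). A second fit therefore compared suspension and DMSO within those pairs (the replicate block). The labels number the replicates but do not pair them, so the pairing here and below is assumed. It called 19 probes (0.0856%), 13 higher (0.0586%) and 6 lower (0.027%) in the reconstituted response, and 2236 probes (10.1%) had an unadjusted p under 0.05. The median standard error of an interaction was 0.149 with the block and 0.248 without it. The 3 paired responses of the lines did not overlap for any of the 19 probes, against 13.9% of all probes (6.53% higher, 7.37% lower). The block fit is made on these pairs, so this describes the calls and is no separate support for them. The 19 probes comprised 14 probes of 13 named genes and 5 without a name, and 9 of the 19 were detected on all 12 arrays. Of the 19, 4 (3 higher, 1 lower) met the detection rule only through the group in which they were high and so had to differ: Vmn2r78, Fam161a, ILMN_1239602 and ILMN_1219870. Their levels are given without a test, which leaves 15 probes (10 higher, 5 lower). Among these, Cntnap2 and ILMN_1229073 met the rule without their highest group only through arrays with YH439.

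**Figure D1:**
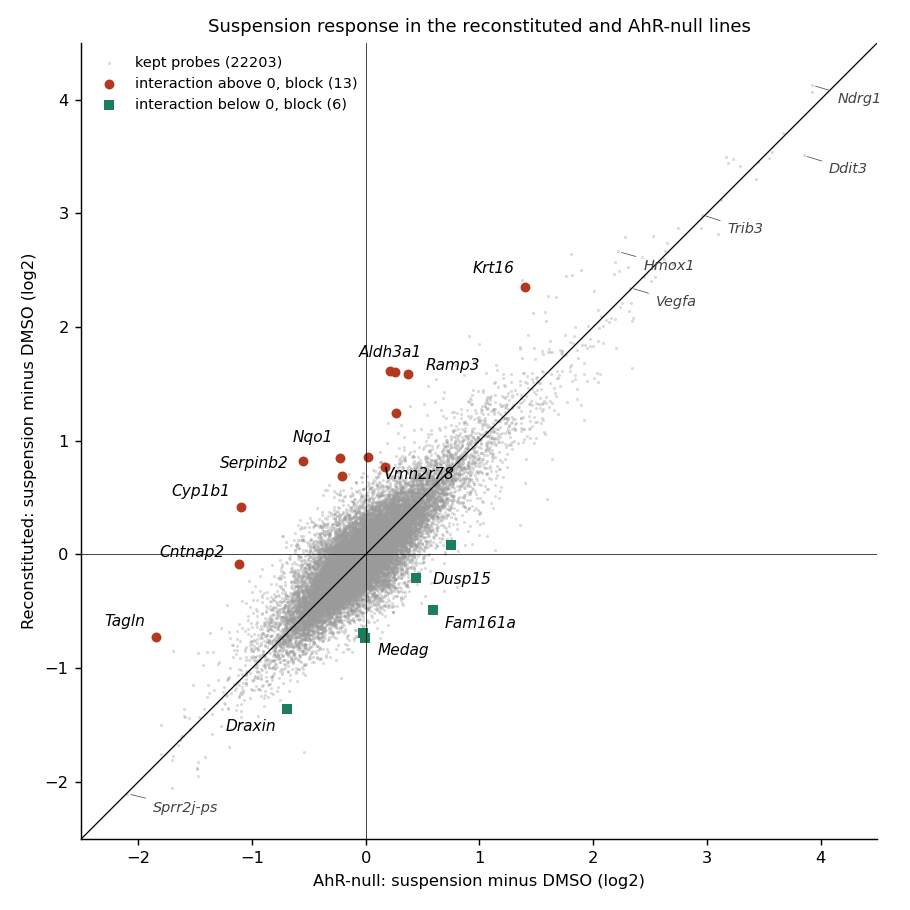
Suspension response (suspension minus DMSO, log2) of each of the 22203 kept probes, with the reconstituted line on the vertical axis and the AhR-null line on the horizontal axis. The diagonal marks equal responses; the 13 probes with a higher and the 6 with a lower reconstituted response, called with the replicate block, lie off it, while Ndrg1, Ddit3, Trib3 and Vegfa lie near it.

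Cyp1b1 (probe ILMN_1232716, chromosome 17), a cytochrome P450 that oxidises steroids and polycyclic hydrocarbons, gave the largest interaction among the called probes. Its log2 intensities in replicates 1, 2 and 3 were 12.08, 11.99 and 12.33 in suspended reconstituted cells and 11.56, 11.73 and 11.87 in reconstituted cells with DMSO. In the AhR-null line they were 10.80, 10.65 and 9.75 in suspension and 11.79, 11.63 and 11.08 with DMSO. The suspended groups of the lines did not overlap, whereas the DMSO groups did. Cyp1b1 fell by 1.10 in the AhR-null line (adjusted p = 0.00913), and stood at 0.42 in the reconstituted line (adjusted p = 0.331; 0.00195 with the block). The interaction was 1.52 ± 0.38 (± is the standard error throughout), with an adjusted p of 1 without the block and 0.000768 with it. The interval with the block ran from 1.25 to 1.78 (95%). Suspended reconstituted cells held 3.33-fold more Cyp1b1 signal than suspended AhR-null cells (log2 1.74, adjusted p = 0.00346), while under DMSO the lines differed by 0.22 (adjusted p = 0.769).

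Aldh3a1 (ILMN_1253178, chromosome 11), an aldehyde dehydrogenase, differed through a rise in the reconstituted line. Its intensities were 11.04, 10.92 and 11.17 in suspended and 9.43, 9.47 and 9.39 in DMSO-treated reconstituted cells, against 9.28, 9.39 and 9.78 in suspended and 9.11, 9.30 and 9.39 in DMSO-treated AhR-null cells. The 3 suspended reconstituted arrays stood above all other arrays of the contrast. Aldh3a1 rose 3.06-fold in the reconstituted line (log2 1.61, adjusted p = 1.6e-06), and stood at 0.22 in the AhR-null line (adjusted p = 0.343). The interaction was 1.39 ± 0.20 (adjusted p = 0.0506 without and 0.00103 with the block).

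Nqo1 (ILMN_2726371, chromosome 8) is a quinone reductase that both AhR and NRF2 are known to drive. It stood higher in reconstituted cells with DMSO too, where the line difference missed the threshold. Its intensities were 7.84, 7.58 and 7.72 in suspended and 7.03, 6.69 and 6.88 in DMSO-treated reconstituted cells, and 5.80, 5.53 and 5.92 in suspended and 6.04, 5.59 and 6.29 in DMSO-treated AhR-null cells. No array of the reconstituted line overlapped one of the AhR-null line. Nqo1 rose by 0.84 in the reconstituted line (adjusted p = 0.00644), and stood at -0.22 in the AhR-null line (adjusted p = 0.507; 0.0439 with the block). The interaction was 1.07 ± 0.28 (adjusted p = 1 without and 0.00635 with the block). The line difference was 1.96 in suspension (adjusted p = 8.35e-05) and 0.90 under DMSO (adjusted p = 0.0833).

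Serpinb2 (ILMN_1253874, chromosome 1), plasminogen activator inhibitor type 2, moved in opposite directions by the paired arrays. The intensities were 7.18, 6.82 and 6.81 in suspended and 6.01, 6.18 and 6.15 in DMSO-treated reconstituted cells, against 6.12, 5.67 and 6.58 in suspended and 6.59, 6.66 and 6.78 in DMSO-treated AhR-null cells. All 3 reconstituted pairs were above 0 and all 3 AhR-null pairs below it. It rose by 0.82 in the reconstituted line (adjusted p = 0.00625) and stood at -0.55 in the AhR-null line (adjusted p = 0.0549; 0.00794 with the block). The interaction was 1.37 ± 0.27 (adjusted p = 0.293 without and 0.0349 with the block).

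**Figure D2:**
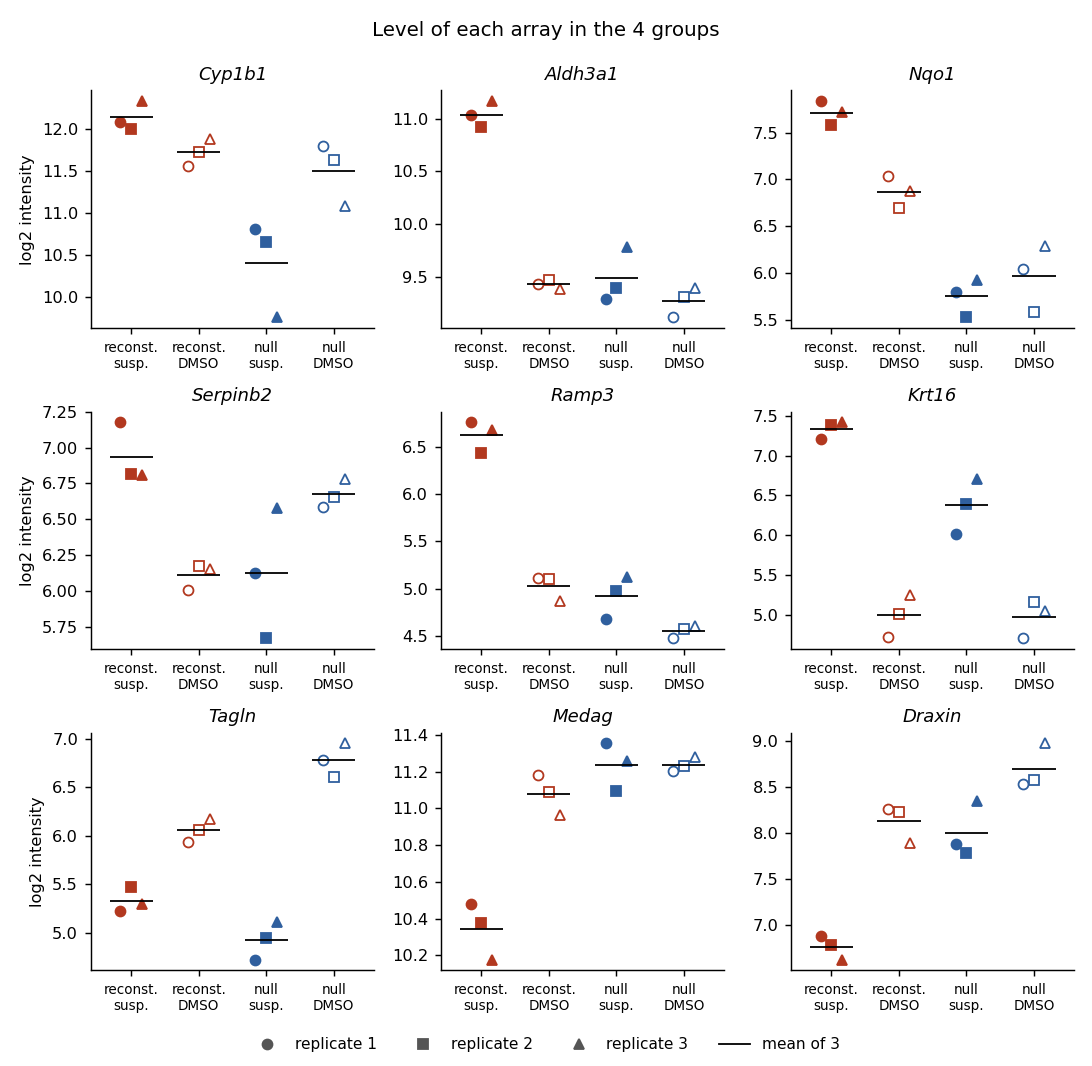
Normalized log2 intensity of 9 of the genes called with the replicate block on each of the 12 arrays, from left to right reconstituted suspension, reconstituted DMSO, AhR-null suspension and AhR-null DMSO; symbols give the replicate number, lines the mean of 3, and each panel has its own vertical axis. Aldh3a1 and Ramp3 stand high on the 3 suspended reconstituted arrays alone, and Cyp1b1 stands low on the 3 suspended AhR-null arrays.

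Ramp3 (ILMN_2749052, chromosome 11), an accessory protein of the calcitonin receptor-like receptor, gave intensities of 6.75, 6.43 and 6.68 in suspended and 5.12, 5.10 and 4.88 in DMSO-treated reconstituted cells. The AhR-null arrays read 4.68, 4.98 and 5.12 in suspension and 4.48, 4.58 and 4.61 with DMSO. Only the suspended reconstituted group was detected on all 3 arrays, with 2 of 3 in each of the suspended AhR-null and reconstituted DMSO groups and 0 of 3 in the AhR-null DMSO group, so the AhR-null DMSO values lie at background. Ramp3 rose 3.01-fold in the reconstituted line (log2 1.59, adjusted p = 1.34e-06), and stood at 0.37 in the AhR-null line (adjusted p = 0.0772; 0.0471 with the block). The interaction was 1.22 ± 0.20 (adjusted p = 0.061 without and 0.0494 with the block), and a second Ramp3 probe stood at 0.95 without passing (adjusted p = 0.173 with the block).

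Krt16 (ILMN_1229813, chromosome 11), a type I keratin of stressed epithelium, rose in both lines and further in the reconstituted one. Its intensities were 7.21, 7.39 and 7.42 in suspended and 4.72, 5.00 and 5.25 in DMSO-treated reconstituted cells, and 6.01, 6.40 and 6.71 in suspended and 4.70, 5.15 and 5.05 in DMSO-treated AhR-null cells. The DMSO groups of the lines overlapped and lay at or near background (detected on 2 and 1 of 3 arrays). The rise was 2.35 (5.1-fold) in the reconstituted and 1.41 (2.65-fold) in the AhR-null line, each past the threshold (adjusted p = 8.72e-07 and 0.000119). The interaction of 0.94 ± 0.28 passed with the block alone (adjusted p = 0.0446; 1 without it).

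Tagln (ILMN_1243652, chromosome 9), the actin-binding protein transgelin, fell in both lines and fell less in the reconstituted one. The reconstituted arrays read 5.23, 5.48 and 5.30 in suspension and 5.94, 6.06 and 6.17 with DMSO, and the AhR-null arrays 4.73, 4.95 and 5.12 in suspension and 6.78, 6.60 and 6.95 with DMSO. The order of the lines on these arrays thus turned round, the AhR-null line being the higher with DMSO and the lower in suspension. Neither line difference passed under limma without the block. The reconstituted line stood at -0.72 against the AhR-null line with DMSO (adjusted p = 0.0689) and at 0.40 in suspension (adjusted p = 0.287). Tagln fell by 0.72 in the reconstituted line (adjusted p = 0.00336) and by 1.85 in the AhR-null line (adjusted p = 8.49e-07), where suspension left it detected on 1 of 3 arrays. The interaction was 1.12 ± 0.22 (adjusted p = 0.283 without and 0.012 with the block). Tagln is also a mesenchymal marker. The summed linear intensity of the 18 tested mesenchymal markers was 57400 to 58300 in suspended and 59500 to 61400 in DMSO-treated reconstituted cells, and 65200 to 67100 in suspended and 70500 to 70700 in DMSO-treated AhR-null cells. The part of that difference in the Tagln result was not tested.

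The genes with a lower reconstituted response were led by Medag and Draxin among those detected on every array. Medag, a gene named for its part in fat cell formation, was called by both of its probes. Its probe ILMN_2642517 (chromosome 5) read 10.48, 10.38 and 10.18 in suspended and 11.18, 11.09 and 10.96 in DMSO-treated reconstituted cells, against 11.35, 11.10 and 11.26 in suspended and 11.21, 11.23 and 11.28 in DMSO-treated AhR-null cells. Medag fell by 0.73 in the reconstituted line (adjusted p = 0.000386) and stood at 0.00 in the AhR-null line (adjusted p = 0.993). The interactions of the 2 probes were -0.73 ± 0.17 and -0.67 ± 0.19 (adjusted p = 0.56 and 1 without, 0.0241 and 0.0364 with the block).

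Draxin (ILMN_1220583, chromosome 4), a secreted guidance factor that opposes WNT signalling, read 6.88, 6.79 and 6.63 in suspended and 8.26, 8.23 and 7.89 in DMSO-treated reconstituted cells. In AhR-null cells it read 7.87, 7.78 and 8.34 in suspension and 8.53, 8.57 and 8.97 with DMSO. It fell in both lines, by 1.36 in the reconstituted and 0.69 in the AhR-null line (adjusted p = 0.000103 and 0.0162). The interaction was -0.67 ± 0.26 (adjusted p = 1 without and 0.0349 with the block). A second Draxin probe, detected on 0 of 3 suspended reconstituted arrays, stood at 0.17. Dusp15 (ILMN_2675090, chromosome 2), a dual-specificity phosphatase, had an interaction of -0.65 ± 0.29 (adjusted p = 1 without and 0.0494 with the block), with responses of -0.21 in the reconstituted and 0.44 in the AhR-null line (adjusted p = 0.558 and 0.155; 0.0349 and 0.00046 with the block).

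The other named calls rest on signals near background. Cntnap2 (ILMN_2592150, chromosome 6), a neurexin-family adhesion protein, was detected on 0 of 3 arrays in each reconstituted group, on 1 of 3 in suspended AhR-null cells and on 3 of 3 in AhR-null cells with DMSO. Without that last group, Cntnap2 met the detection rule only through the AhR-null arrays with YH439 (detected on 3 of 3). It was at least 1.94-fold lower in reconstituted than in AhR-null cells with DMSO, and its interaction of 1.03 (adjusted p = 0.0532 without and 0.0119 with the block) has only background on the reconstituted side. Its other kept probes stood at -0.31 and -0.13. Vmn2r78 (ILMN_1256588, chromosome 7), a vomeronasal receptor, was detected on the 3 suspended reconstituted arrays and on 0 of 3 in each other group, at least 1.33-fold higher than with DMSO. Fam161a (ILMN_2874777, chromosome 11), a ciliary protein, was detected on the 3 suspended AhR-null arrays and on 1 of the other 9, at least 1.12-fold higher in suspended than in DMSO-treated AhR-null cells. Among the 5 probes without a gene name, ILMN_2653725 was detected on all 12 arrays with an interaction of 0.90 (adjusted p = 0.0149 with the block) and ILMN_2473066 on all 12 with -0.66 (0.0494). The other 3, ILMN_1239602, ILMN_1219870 and ILMN_1229073, were detected on all 3 suspended reconstituted arrays and on 0 of 3 reconstituted arrays with DMSO, at least 2.19-fold, 1.53-fold and 1.49-fold higher.

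**Figure D3:**
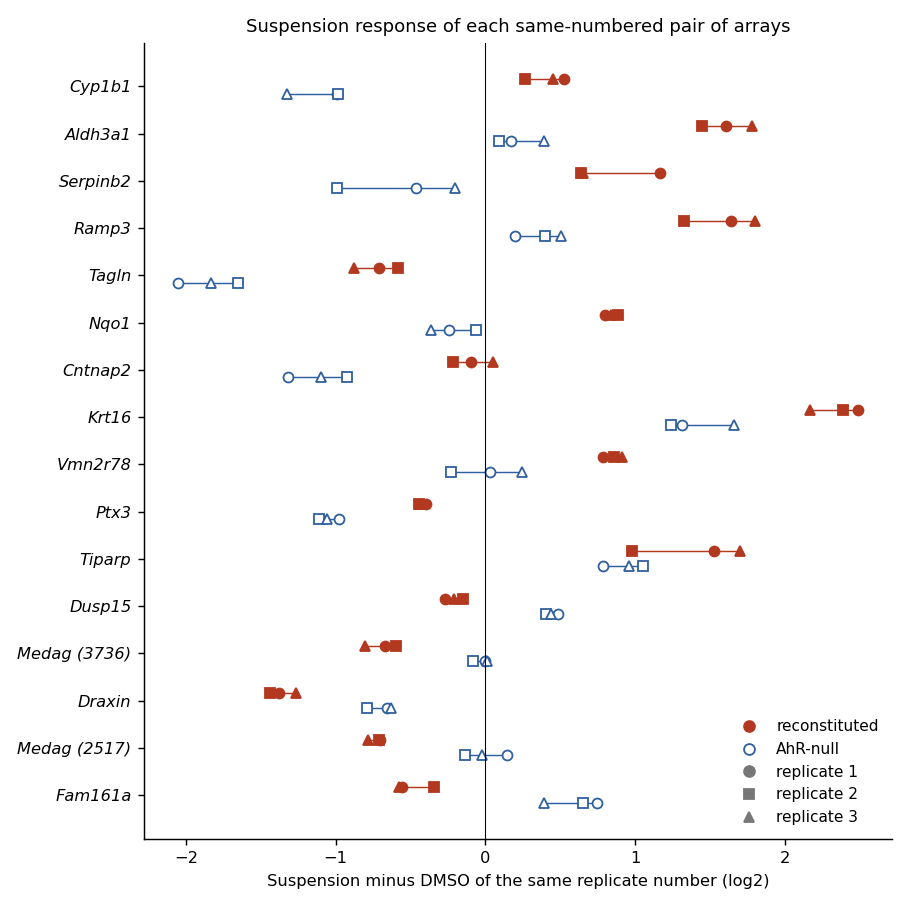
Suspension minus DMSO (log2) within each pair of arrays of the same replicate number, with filled symbols for the reconstituted and open symbols for the AhR-null line, for the 14 named probes called with the replicate block and for Ptx3 and Tiparp; the digits beside Medag end the names of its 2 probes. The 3 paired responses of the lines do not overlap in any row except that of Tiparp.

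Of the AhR feedback genes, Tiparp (ILMN_2589291) rose in both lines; it encodes an ADP-ribosyltransferase that holds AhR back. It read 7.38, 6.91 and 7.31 in suspended and 5.85, 5.93 and 5.60 in DMSO-treated reconstituted cells, and 6.72, 7.02 and 6.36 in suspended and 5.94, 5.97 and 5.40 in DMSO-treated AhR-null cells. Each suspended group stood above its DMSO group. The rise was 1.40 in the reconstituted and 0.93 in the AhR-null line (adjusted p = 0.000108 and 0.00301), and the interaction of 0.47 had a 95% interval from -0.11 to 1.05 and overlapping pairs (adjusted p = 0.405 with the block). With YH439, set against the same DMSO arrays, Tiparp stood at 1.49 in the reconstituted and -0.01 in the AhR-null line. Ahrr, the AhR repressor, was detected on 1 of the 12 arrays. Its interaction of -0.10 (95% interval -0.55 to 0.34) is one of background, and its sign turned with the authors' processed values (0.0875). Ptx3, a pentraxin of innate immunity, fell in both lines, by 0.42 in the reconstituted and 1.05 in the AhR-null line (adjusted p = 0.00627 and 2.99e-06), and its interaction of 0.62 ± 0.14 missed the threshold with the block (adjusted p = 0.0527).

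How far the calls hold differed between genes. With the block, Cyp1b1, Aldh3a1 and Nqo1 were called whichever 1 of the 12 arrays was left out (highest adjusted p 0.0078, 0.00945 and 0.0449). Cntnap2 lost its call without reconstituted DMSO replicate 3 (adjusted p = 0.0684) or reconstituted suspension replicate 3 (0.0626). Tagln lost it without AhR-null DMSO replicate 1 (0.0699), reconstituted DMSO replicate 1 (0.0563) or 2 (0.0554) or reconstituted suspension replicate 2 (0.0547). The other 14 probes lost theirs without at least 8 of the 12 arrays, with adjusted p up to 0.203. With only the 12 arrays of the contrast, or without the 6 dimmest arrays, 0 probes were called with the block by limma; the highest adjusted p under these and the other processing alternatives was 0.088 for Cyp1b1, 0.088 for Aldh3a1 and 0.177 for Nqo1. Across all alternatives of both fits, the highest adjusted p was 1 for each of the 19 probes except Aldh3a1 (0.255) and ILMN_2653725 (0.407), and the lowest lay between 3.76e-05 and 0.0151. The sign of the interaction of all 19 probes was the same under every alternative run. Among the 6 dimmest arrays (1 per group, no test) the interactions of Cyp1b1, Aldh3a1 and Nqo1 were 1.85, 1.22 and 1.17, and among the others 1.35, 1.48 and 1.01.

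The 13 called genes were also set between the lines within each treatment. In suspension 9 of the 13 passed (6 higher and 3 lower in reconstituted than in AhR-null cells), against 252 of 22203 probes (1.13%; 0.513% higher, 0.622% lower). With DMSO 1 of the 13 passed, Cntnap2, against 76 of 22203 (0.342%; 0.0811% higher, 0.261% lower). The DMSO count over all probes was 4858 without the 6 dimmest arrays and 6503 with array weights, so a gene that missed this threshold is not shown to be equal in the lines. The 13 genes were chosen by the interaction, which is the difference of these contrasts, so their counts describe the calls and are not separate evidence. The 9 include Vmn2r78 and Fam161a, which met the detection rule only through the group in which they were high. Ramp3 was higher by 1.69 in suspension (adjusted p = 1.7e-05) and Aldh3a1 by 1.56 (4.89e-05), while Draxin was lower by 1.23 (0.00284) and Medag by 0.89 (0.000989).

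Promoter windows from RefSeq (GRCm38.p6, 250 bases before to 50 after the start) were searched on both strands for GCGTG, the core of the xenobiotic response element. Entries were found for 9 of the 13 called genes, with 13 windows. The core stood in 5 of these 13 windows, for Cyp1b1, Ramp3, Medag, Cntnap2 and Fam161a, against 49.6% of 11536 windows of genes with a kept probe and 32.4% of all 32851. The longer form TNGCGTG, which contains the core and was also searched on both strands, stood in 1 window, that of Fam161a, against 7.76% and 5.07%. The windows of Cyp1b1, Nqo1 and Ramp3 are shown because these genes were called higher and differ in the core, with capitals on the core in either orientation, 5′ to 3′ on the strand of the gene. They lie at chr17:79715012-79715311 (minus strand), chr8:107403156-107403455 (minus) and chr11:6658283-6658582 (plus).
Cyp1b1: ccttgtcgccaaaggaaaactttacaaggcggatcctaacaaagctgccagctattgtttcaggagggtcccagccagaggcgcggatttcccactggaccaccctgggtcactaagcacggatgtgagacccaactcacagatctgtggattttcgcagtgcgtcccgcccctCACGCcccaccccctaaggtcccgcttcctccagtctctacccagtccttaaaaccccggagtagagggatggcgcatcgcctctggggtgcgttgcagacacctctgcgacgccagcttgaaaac
Nqo1: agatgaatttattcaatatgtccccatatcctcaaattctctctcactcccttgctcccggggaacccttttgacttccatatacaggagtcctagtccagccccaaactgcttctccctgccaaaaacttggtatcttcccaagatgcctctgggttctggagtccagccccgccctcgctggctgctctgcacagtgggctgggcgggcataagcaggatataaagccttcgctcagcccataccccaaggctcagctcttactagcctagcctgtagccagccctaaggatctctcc
Ramp3: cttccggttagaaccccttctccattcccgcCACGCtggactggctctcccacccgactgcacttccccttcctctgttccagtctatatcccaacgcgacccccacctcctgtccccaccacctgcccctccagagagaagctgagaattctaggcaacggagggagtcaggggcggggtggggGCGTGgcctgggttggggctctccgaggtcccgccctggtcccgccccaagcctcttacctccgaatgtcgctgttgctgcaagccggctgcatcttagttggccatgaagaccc

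The Cyp1b1 window holds 1 match, starting at base -76 relative to the gene's start, the Ramp3 window holds 2, at -219 and -65, and the Nqo1 window holds 0. A match of these letters is a description, not a bound site.

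The AhR gene battery as a list showed the same order of lines. Of its 16 members, 13 were tested, and 8 rose and 1 fell in the reconstituted line, against 5 and 1 in the AhR-null line; of all kept probes, 9.3% rose and 10.3% fell in the reconstituted and 9.41% and 9.37% in the AhR-null line. With the block 10 rose and 1 fell in the reconstituted line, and 5 rose and 4 fell in the AhR-null line. The median response was 0.84 in the reconstituted and 0.21 in the AhR-null line, and the median interaction was 0.47, against -0.01 over the 11149 genes. It lay between 0.41 and 0.50 under the other scalings and background corrections. Interactions were positive for 10 of 13 members (76.9%, against 46.9% of all genes), and the paired responses were apart and higher for 6 and lower for 1 (46.2% and 7.69%, against 6.35% and 8.07% of genes). With the block, 4 of 13 were called, all higher (Cyp1b1, Aldh3a1, Nqo1 and Serpinb2), against 8 higher and 4 lower of 11149 genes. Adh7, Ccno and Chil1 are on this list because of earlier results of these arrays. The counts and medians of the list include them and are therefore no separate evidence.

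Members of the battery outside the calls did not move alike. Gsta1, a glutathione transferase, rose in both lines (2.79 and 2.28, adjusted p = 1.44e-07 and 1.32e-06), with an interaction of 0.51 and overlapping pairs. Adh7, a retinol-oxidising alcohol dehydrogenase, rose by 1.70 in the reconstituted and 0.95 in the AhR-null line (adjusted p = 0.000133 and 0.0105), and its interaction of 0.75 missed the threshold (0.162 with the block). Ccno, a cyclin, rose in both lines (1.02 and 0.81) and so did Nfe2l2, which encodes NRF2 (0.84 and 0.63), with interactions of 0.21 each. Lpcat2, a lysophospholipid acyltransferase, fell by 0.68 in the reconstituted line and stood at -0.29 in the AhR-null line (adjusted p = 0.115; 0.0149 with the block). Chil1, a chitinase-like secreted protein, stood at -0.21 and -0.17 in suspension, and at 1.88 and 0.19 with YH439.

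The values with YH439, which share the DMSO arrays, give the same genes beside a ligand. Aldh3a1 stood at 2.27 in the reconstituted and 0.18 in the AhR-null line with YH439, Cyp1b1 at 1.04 and -0.08, Nqo1 at 1.01 and 0.11, and Serpinb2 at 0.84 and 0.26. Of the other called genes, Ramp3 stood at 0.48 and 0.08, Krt16 at 0.09 and 0.03, Tagln at 0.12 and -0.19, and Draxin at -0.23 and 0.07. Medag stood at -0.36 and 0.01 (its second probe at -0.35 and 0.09), Dusp15 at -0.20 and 0.17, Cntnap2 at -0.01 and -0.26, and the unnamed probe ILMN_2653725 at 1.17 and 0.11. The median over the 13 battery members with YH439 was 1.01 in the reconstituted and 0.11 in the AhR-null line. It includes Adh7, Ccno and Chil1, listed because of earlier results of these arrays, and is a description only. For Cyp1b1, the AhR-null response was -1.10 in suspension and -0.08 with YH439.

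**Figure D4:**
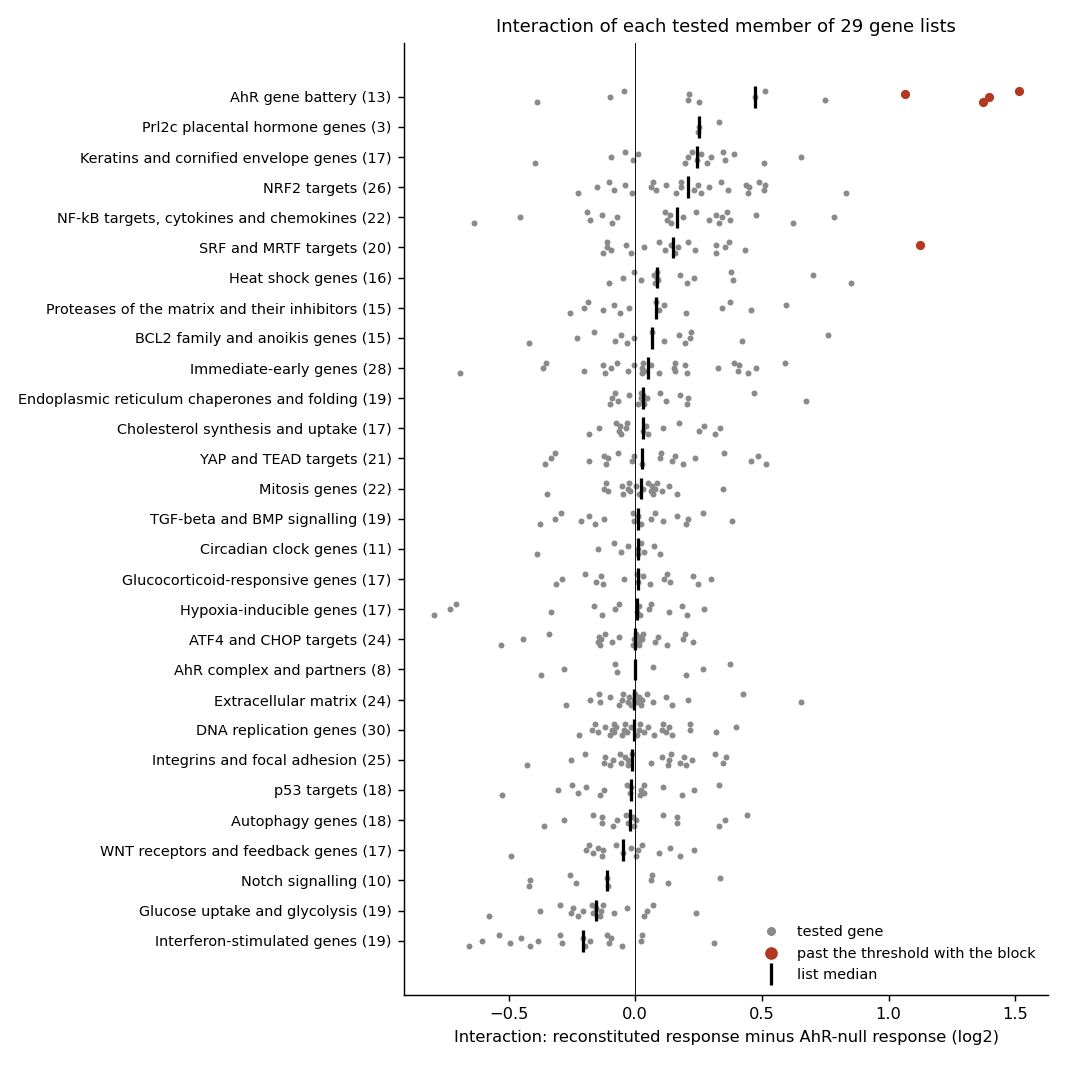
Interaction (log2) of each tested gene of 29 lists, 1 point per gene, with the list median as a bar and the number tested in brackets; filled larger points passed with the replicate block. The AhR gene battery has the highest median of these lists (0.47) and holds 4 of the called genes, Tagln stands apart among the SRF and MRTF targets, and the interferon-stimulated genes have the lowest median (-0.21). The battery includes Adh7, Ccno and Chil1, listed because of earlier results of these arrays.

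NRF2, a stress factor that shares targets with AhR, drives antioxidant and glutathione genes. Of 26 tested NRF2 targets, 11 rose and 0 fell in the reconstituted line, and 7 rose and 0 fell in the AhR-null line; with the block 15 rose and 3 fell, and 13 rose and 4 fell. None passed in the interaction under limma (0 of 26 in either fit), and their median interaction was 0.21. The paired responses were apart and higher for 12 of 26 (46.2%) and lower for 0, against 6.35% and 8.07% of all genes. Of all kept probes 9.3% rose and 10.3% fell in the reconstituted and 9.41% and 9.37% in the AhR-null line without the block, and with it 19.3% and 22.6%, and 18.7% and 22.1%; the counts of the lists that follow stand against the same shares. Gsta2, a glutathione transferase, came nearest, with responses of 2.64 in the reconstituted and 1.81 in the AhR-null line and an interaction of 0.83 ± 0.27 (adjusted p = 0.075 with the block). Hmox1, heme oxygenase 1, rose by 2.66 and 2.22 (interaction 0.45), and Gclm, a subunit of the enzyme that starts glutathione synthesis, by 0.87 and 0.42 (0.45). Cbr3, a carbonyl reductase, rose by 0.33 in the reconstituted line (adjusted p = 0.0284) and stood at -0.18 in the AhR-null line. Slc7a11, the cystine transporter, had an interaction of -0.22, and Sqstm1, an autophagy receptor, stood near 0 at -0.04, on rises of 1.35 to 1.63.

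**Figure D5:**
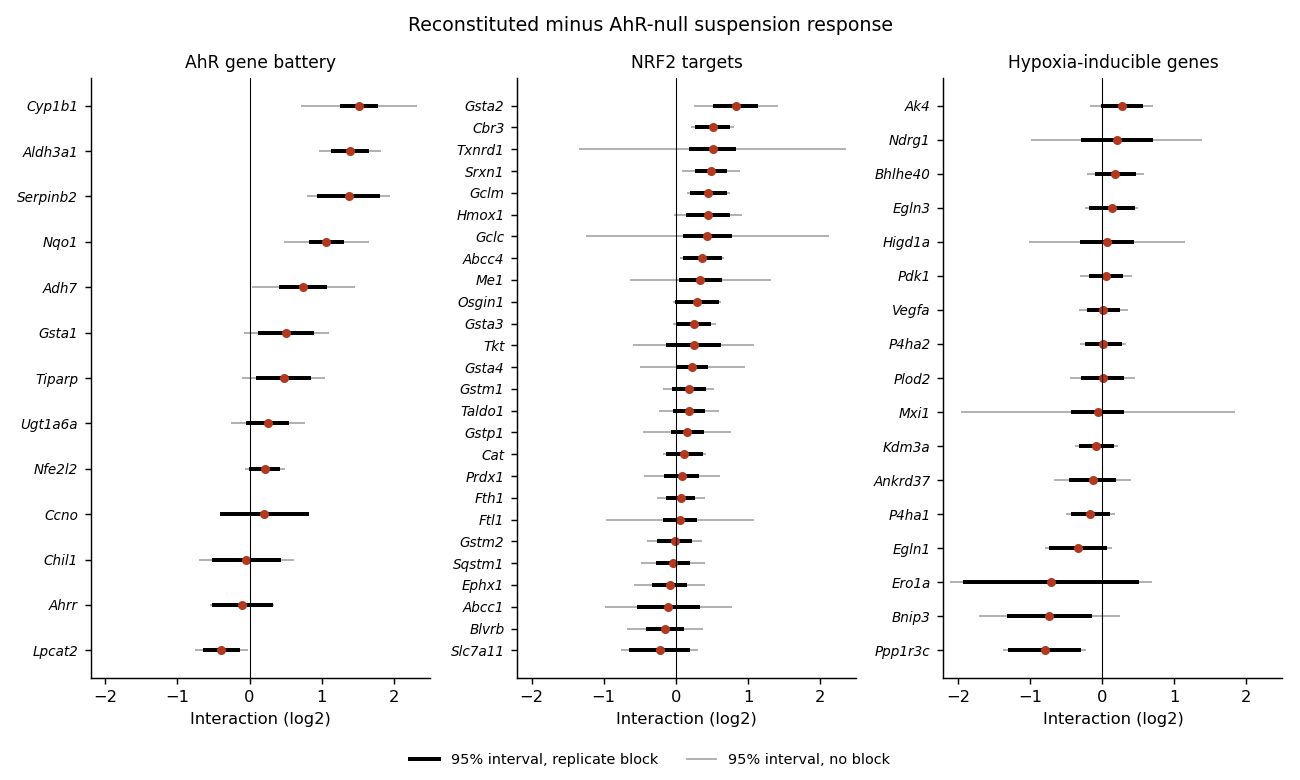
Interaction (log2) with its 95% interval for each tested member of the AhR gene battery, the NRF2 targets and the hypoxia-inducible genes; thick bars are intervals with the replicate block and thin bars those without. Cyp1b1, Aldh3a1, Serpinb2 and Nqo1 lie at or above 1.07, the NRF2 targets between -0.22 and 0.83, and Vegfa at 0.02.

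The machinery of AhR did not pass in the interaction. Of 12 genes of the AhR complex and its partners on the array 8 were tested, 1 rose in the reconstituted line (Rela, an NF-kB subunit that can pair with AhR, at 0.42) and 0 in the AhR-null line; with the block 3 rose, and 2 rose and 1 fell. Arnt, the partner of AhR, stood at -0.16 in the reconstituted and 0.13 in the AhR-null line, with an interaction of -0.28 (95% interval -0.55 to -0.02, adjusted p = 0.355 with the block).

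Most genes of the amino acid stress, chaperone and hypoxia lists rose in both lines. Of 24 tested ATF4 and CHOP targets, 20 rose in the reconstituted and 19 in the AhR-null line, with medians of 0.85 and 0.88 and a median interaction of 0.00. Ddit3, which encodes CHOP, rose by 3.51 and 3.85 (interaction -0.34, 95% interval -1.07 to 0.39), and Trib3, a pseudokinase, by 2.99 and 2.96 (interaction 0.03, 95% interval -0.32 to 0.38). Of 19 endoplasmic reticulum chaperones and folding genes 14 and 13 rose, among them Herpud1 by 2.52 and 2.55 (interval of the interaction -0.28 to 0.23). Of 17 hypoxia-inducible genes 16 rose in each line, with medians of 1.79 and 1.92. Vegfa, the angiogenic factor, rose by 2.35 and 2.33 (interval -0.31 to 0.35), and Ndrg1 by 4.13 and 3.92, with an interval too wide to compare (-0.99 to 1.39). The placental hormone gene Prl2c2 rose by 3.50 and 3.17, and its close paralogs Prl2c3 and Prl2c4 by 3.48 and 3.23 and by 3.44 and 3.19; near-identical sequences leave it unsettled which of them was measured.

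Counted over all probes, suspension changed 4351 in the reconstituted line (2065 higher, 2286 lower; 19.6%) and 4170 in the AhR-null line (2090 higher, 2080 lower; 18.8%). With the block the shares were 41.9% in the reconstituted line (19.3% higher, 22.6% lower) and 40.8% in the AhR-null line (18.7% higher, 22.1% lower). Both lines called 3105 probes, 3104 of them in the same direction (1578 higher, 1526 lower). The 1 exception was the Fam161a probe near background. For 2993 of the 3105 (96.4%) the 95% interval of the interaction lay within 1 log2 unit either way, as it did for 83.7% of all kept probes. The median absolute response of the shared probes was 0.68 in the reconstituted and 0.67 in the AhR-null line, which is less than that margin. An interval within it therefore does not show equal responses. A further 1246 probes passed in the reconstituted line alone and 1065 in the AhR-null line alone, which is no test of a difference. Across the 22203 probes the responses had Pearson r 0.867 and Spearman rho 0.798, given as a description, since probes share arrays and a normalization. The median absolute interaction was 0.13, and 17 probes reached 1 in either direction (10 positive, 7 negative), of which 7 were detected on all 12 arrays. The rule of detection kept 708 probes seen on exactly 3 arrays (median absolute interaction 0.18, 3 of them called with the block) and left out 813 seen on exactly 2; the 15940 seen on all 18 arrays had a median of 0.12 and held 9 of the calls.

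The interferon-stimulated genes and the glycolysis genes had median interactions below 0, with 0 members called in either fit. Of 19 tested interferon-stimulated genes 0 rose and 8 fell in the reconstituted line, and 2 rose and 6 fell in the AhR-null line, with medians of -0.45 and -0.08 and a median interaction of -0.21. The pairs were apart and lower for 8 (42.1%) and higher for 0, against 8.07% and 6.35% of all genes. Ifit3, an antiviral protein, fell by 0.55 in the reconstituted line (adjusted p = 0.0466) and stood at 0.05 in the AhR-null line, while Stat2, which carries the interferon signal, stood at -0.09 and rose by 0.44 (adjusted p = 0.023) in the AhR-null line. Isg15, a ubiquitin-like protein, fell in both, by 0.80 and 0.61. Of 19 genes of glucose uptake and glycolysis 8 rose in the reconstituted line and 12 rose and 1 fell in the AhR-null line, where the block raised the reconstituted count to 14 and the AhR-null count to 15. Their median interaction was -0.15, with pairs apart and lower for 6 (31.6%, against 8.07% of all genes). Pfkl, a phosphofructokinase, rose by 1.19 in the reconstituted and 1.56 in the AhR-null line, Ldha, lactate dehydrogenase, by 0.40 and 0.65, and the glucose transporter Slc2a1 by 2.55 and 2.71.

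Keratins and genes of the cornified envelope had a median interaction of 0.24 over 17 tested genes, with pairs apart and higher for 6 and lower for 1 (35.3% and 5.88%, against 6.35% and 8.07% of all genes). In each line 3 rose (9.3% and 9.41% of all probes), and with the block 6 in the reconstituted and 3 in the AhR-null line. Krt18 and its partner Krt8, the keratins of simple epithelium, rose in both lines, by 2.13 and 1.47 and by 1.04 and 0.70, with interactions of 0.65 and 0.35. Neither interaction passed (adjusted p = 0.205 and 0.441 with the block). The small proline-rich gene Sprr2j-ps fell by 2.10 and 2.09, with an interval of the interaction from -0.57 to 0.55. Among 20 SRF and MRTF targets, the genes of the actin cytoskeleton, 1 rose and 3 fell in the reconstituted and 1 and 5 in the AhR-null line, against 9.3% and 10.3%, and 9.41% and 9.37%, of all probes, and Tagln was the one called. With the block 4 rose and 4 fell in the reconstituted and 1 rose and 10 fell in the AhR-null line. Myl9, a myosin light chain, fell by 1.36 and 1.26, with an interval of the interaction from -0.78 to 0.59.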

How the data were processed

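Transcript levels were read on 18 Illumina bead arrays, 3 in each of 6 groups, with BeadStudio, per the submitters' processing notes (the sources used here give no version). The authors deposited a table of non-normalized, background-subtracted bead intensity, with a detection p-value per probe and array, and a matrix of processed intensity with a floor of 20, whose scaling is not stated (rank correlation of 0.995 to 0.998 with the non-normalized values). Groups came from the sample labels. Here neqc (limma 3.58.1, R 4.3.3; offset 16) corrected the background against a negative-control spread that it infers from detection p-values, normalized by quantiles and took log2. Probes detected (p-value under 0.05) on 3 or more arrays entered lmFit and eBayes with a mean per group over all 18 arrays (12 residual degrees of freedom), tested on both sides with Benjamini-Hochberg adjustment over 22203 probes and a threshold of 0.05. The fits were tested on simulated data with known interactions and a replicate effect built in. That simulation cannot show whether the pairing holds in these arrays.

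The replicate block fits the replicate number within each line (8 residual degrees of freedom) and gives no contrast between lines. The labels number the replicates but do not pair them, so the pairs are assumed. Deviations of same-numbered suspension and DMSO arrays correlated at 0.451, 0.159 and 0.463 in the reconstituted and 0.542, 0.667 and 0.832 in the AhR-null line. Across lines the correlations were -0.31, -0.326 and -0.669 in suspension and -0.368, 0.0769 and -0.466 with DMSO, so numbers were not paired across lines.

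Of all probes, 34885 named 1 gene, 18 several and 10378 none, by the platform annotation; 34807 matched RefSeq (GRCm38.p6), which changed 0 symbols. A gene stands in the lists for its kept probe with the highest mean. Named genes were Ahr, Cyp1a1, Cyp1b1, Ahrr, Tiparp, Nqo1 and Aldh3a1, the named genes called in the interaction in either fit (up to 12 per direction), and the member of each list with the smallest p (up to 4 if called). The other members given as examples, the unnamed probes and the second probes were chosen after their values were seen. The members, the lists and the alternatives were chosen with earlier results of these data known. A probe not detected in a group has only a bound: the brighter mean over the mean of, per array, the higher of its own signal and the lowest detected signal. Alternatives changed the arrays fitted, background correction, scaling, filter, probes, weights and blocks. The number of arrays and the signal over background limit the precision.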

Additional observations from a re-analysis of the deposited data

Results flagged for a closer look

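With the replicate block, the test of the difference itself called 19 probes for their suspension response in the reconstituted against the AhR-null line. Of these, 15 met the detection rule without the group in which they were detected most, Cntnap2 and ILMN_1229073 only through arrays with YH439. Higher in the reconstituted response were Cyp1b1 (1.52), Aldh3a1 (1.39), Serpinb2 (1.37), Ramp3 (1.22), Tagln (1.12), Nqo1 (1.07), Cntnap2 (1.03), Krt16 (0.94) and Vmn2r78 (0.84), and the unnamed probes ILMN_1239602 (1.35), ILMN_1219870 (0.98), ILMN_2653725 (0.90) and ILMN_1229073 (0.60). Lower were Fam161a (-1.09), Medag by its probes ILMN_2642517 (-0.73) and ILMN_1213736 (-0.67), Draxin (-0.67) and Dusp15 (-0.65), and the unnamed probe ILMN_2473066 (-0.66). None of the 19 passed without the block. Vmn2r78, Fam161a, ILMN_1239602 and ILMN_1219870 met the detection rule only through the group in which they were high, so their differences carry no test. Cntnap2 was detected on 0 of 3 arrays in each reconstituted group, and its other kept probes stood at -0.31 and -0.13. No test for an outlying array was run on groups of 3; AhR-null replicate 3, which correlated less with its group, is described in the report.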

How the results depend on the processing

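The count of probes that differ between the lines moved with the block and with array weights. Without the block limma called 0, and the count was also 0 with only the 12 arrays compared, no background correction, normexp by maximum likelihood, median scaling and without the 6 dimmest arrays. It was 4 with no filter on detection, 3 with a stricter filter, 16 with the authors' values, 1 with 1 probe per gene (Aldh3a1), 46 with array weights, 6 with the set of dimmest arrays as a block, and 0 to 1 with 1 array left out. With the replicate block it was 19, 7 with no background correction, 14 with maximum likelihood, 8 with median scaling, 10 with no filter, 26 with the stricter filter, 30 with the authors' values, 19 with 1 probe per gene, 140 with weights, 4, 5, 6, 7, 8 or 10 with 1 array left out, and 0 with only the 12 arrays or without the dimmest. In the reconstituted and the AhR-null response, the block called 9305 and 9063, 1 probe per gene (fewer tested) 2689 and 2524, the fit without the dimmest arrays 7034 and 6719, weights 8161 and 8995, and the dimmest set as a block 7165 and 6970; with 1 array left out the counts ran from 2999 to 5018 and from 3093 to 4306. Between the lines under DMSO and in suspension, the counts were 31 and 112 with only the 12 arrays, 4858 and 5254 without the dimmest arrays, 133 and 618 with the authors' values, 6503 and 7981 with weights, 332 and 1030 with the dimmest set as a block, and 28 to 88 and 115 to 380 with 1 array left out; median scaling gave 149 in suspension. The dimmest set as a block, the left-out arrays with the block and the block with other processing were chosen after seeing the data. Over 52 named results, 2368 alternative values gave 2128 with the direction and the side of the threshold of the fit without the block, 228 that newly passed and 12 that turned sign: Rora 0.11 and Ahrr 0.0875 with the authors' values in both fits, Ahrr 0.0067 without reconstituted DMSO replicate 2 with the block and 0.0063 without reconstituted suspension replicate 2 in the fit with no block (-0.2486 to 0.0063 with 1 array left out), Nsdhl -0.0117 and Plvap -0.072 when the dimmest arrays were dropped in both fits, and Plvap -0.0903 with weights and -0.0726 with weights and the block. With 0 calls in that fit none could be lost. The cause of these changes was not tested. A chip as a block was not run, since the files used here give none. Among 52 named probes the block added 4 calls to the reconstituted and 9 to the AhR-null response and removed 0.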

Other observations

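Several further genes had paired responses of the lines that did not overlap without a call (6.53% of probes higher, 7.37% lower). Il1rn, a decoy for the interleukin 1 receptor, rose by 1.07 in the reconstituted line (adjusted p = 0.000114) and stood at 0.28 in the AhR-null line (adjusted p = 0.218; 0.0477 with the block). Hspa1a, an inducible HSP70, rose by 0.70 in the reconstituted line (adjusted p = 0.0045) and stood at -0.15 in the AhR-null line. Dusp4, a phosphatase of MAP kinases, rose by 2.27 and 1.68. Btg2, an antiproliferative immediate-early gene, was detected on 1 of 3 suspended reconstituted and 3 of 3 suspended AhR-null arrays, and on 0 of 6 with DMSO; it was at least 1.33-fold higher in suspended than in DMSO-treated AhR-null cells. Vldlr, a lipoprotein receptor, rose by 1.51 and 2.04, and Fzd2, a WNT receptor, fell by 1.69 and 1.21. Sesn1, a sestrin under p53, fell by 1.20 and 0.67, and Kif11, a spindle kinesin, by 0.79 and 0.44.

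The other pathway lists had median interactions between -0.11 and 0.16 and 0 called members in either fit. In the reconstituted and then the AhR-null line, 12 and 12 of 28 immediate-early genes rose, 8 and 8 of 18 p53 targets rose, and 11 and 11 of 22 mitosis genes fell, against 9.3% and 9.41% of all probes that rose and 10.3% and 9.37% that fell. Of 22 NF-kB targets, cytokines and chemokines 6 and 7 fell, and of 16 heat shock genes 5 and 3 rose; with the block 10 and 9 fell, and 8 and 3 rose (22.6% and 22.1% of all probes fell, 19.3% and 18.7% rose). For the 13 remaining lists, of 10 to 30 tested genes, the median interactions were 0.08 (matrix proteases), -0.0043 (extracellular matrix), 0.03 (YAP and TEAD targets), 0.06 (BCL2 family), -0.01 (integrins and focal adhesion), 0.01 (TGF-beta and BMP), 0.03 (cholesterol synthesis), -0.005 (DNA replication), 0.01 (glucocorticoid-responsive genes), 0.01 (circadian clock), -0.02 (autophagy), -0.11 (Notch) and -0.05 (WNT). Among markers of other cells, Sox9 of the bile duct rose by 1.62 and 1.55 and Csf1r of macrophages by 1.35 and 1.39, but their lists did not move with them. In each line 1 of 4 tested bile duct markers and 1 of 4 tested macrophage markers rose (9.3% and 9.41% of all probes). The median responses were 0.22 and 0.25 for the bile duct list and -0.21 and -0.12 for the macrophage list. With the block 2 macrophage markers fell in the AhR-null line.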
